A study of Mus musculus with 20 samples.

Results

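The mouse miR-216 and miR-217 cluster consists of 4 small hairpin genes, Mir216b, Mir216c, Mir216a and Mir217, which together give 8 mature arms. All rows named after these 4 miRNAs were taken, whichever arm they stand for. The rows, mmu-miR-217-5p, mmu-miR-217-3p and the arms of mmu-miR-216a, mmu-miR-216b and mmu-miR-216c, are 8 of the 1886 mature miRNAs listed in each of 20 count tables, and 5 of the 8 passed the low-count filter that kept 542 miRNAs for testing. The arms were picked by name, but the cluster was proposed with earlier results of these same counts known. The calls below therefore describe where its arms stand in a fit over all miRNAs and are no independent support for a pattern.

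The cells were primary midbrain neuron cultures from the ventral mesencephalon of C57Bl6/J mouse embryos of day 12.5, kept in serum-free Neurobasal-A medium with B27. There were 4 groups of 5 libraries. They were day 5 in vitro with GDNF (DIV5 GDNF), day 5 without it (DIV5 control), day 1 with GDNF (DIV1 GDNF) and day 1 without it (DIV1 control). GDNF, glial cell line-derived neurotrophic factor, is a survival factor for midbrain dopamine neurons and was given at 10 ng/ml. Whether the replicates of a group were separate animals or cultures is not given, so p-values speak only of the spread among these 20 libraries. The cultures hold several cell types, and fewer cells of a type cannot be told apart from less RNA per cell.

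A miRNA gene is transcribed as a longer RNA from which the enzymes Drosha and Dicer cut a hairpin and then a short duplex of 2 arms, named 5p and 3p. One arm is usually kept by an Argonaute protein, and its bases 2 to 8, the seed, pair with target messenger RNAs. The miR-216 and miR-217 hairpins are best known from the exocrine pancreas, where their arms are abundant in acinar cells, and they are also known from the embryonic brain stem. miR-217 is known for targeting the deacetylase gene Sirt1 in human endothelial cells.

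The mature sequences are shown because the counts are given per mature arm and because the arms differ in their seeds, printed in capitals. They are from RefSeq (GRCm38.p6, the same assembly as mm10), which held all 8, and are written 5′ to 3′.
miR-217-5p: uACUGCAUcaggaacugacugga
miR-217-3p: cAUCAGUUccuaaugcauugccu
miR-216a-5p: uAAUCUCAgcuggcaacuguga
miR-216a-3p: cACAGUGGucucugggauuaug
miR-216b-5p: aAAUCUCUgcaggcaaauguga
miR-216b-3p: aCACUUACcuguagagauucuu
miR-216c-5p: gAAGAAUCucuacagguaagugu
miR-216c-3p: uUUGCCUGcagagauuucccagu

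The 8 arms have 8 different seeds, and none of these seeds was found in any other of the 1679 mature mouse miRNAs searched. The closest pair is miR-216a-5p and miR-216b-5p, which are identical at 18 of 22 positions and at 6 of the 7 seed bases. miR-217-5p shares 6 of 22 positions with either of them when all are aligned from the 5′ end. 

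All 4 hairpins lie on chromosome 11 within 17645 bp. On GRCm38, Mir216b is at chr11:28746191-28746276, Mir216a at chr11:28757012-28757083 and Mir217 at chr11:28763728-28763835, all on the plus strand. Mir216a starts 10735 bp past the end of Mir216b, and Mir217 starts 6644 bp past the end of Mir216a. Mir216c, at chr11:28746198-28746266 on the minus strand, is the exact reverse complement of 69 bases inside Mir216b. In GENCODE vM21, Mir216a and Mir217 lie in introns of the long non-coding RNA gene Gm12082 on the same strand. In RefSeq, Mir216b and Mir216c lie within the host gene Mir217hg, which ends before Mir216a. The Mir217 hairpin is printed whole, with both arms in capitals, because its 2 arms differed in level in the libraries that stand apart.
Mir217: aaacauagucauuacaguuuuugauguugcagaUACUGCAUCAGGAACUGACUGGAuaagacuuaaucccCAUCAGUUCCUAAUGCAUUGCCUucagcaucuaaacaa

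**Figure D1:**
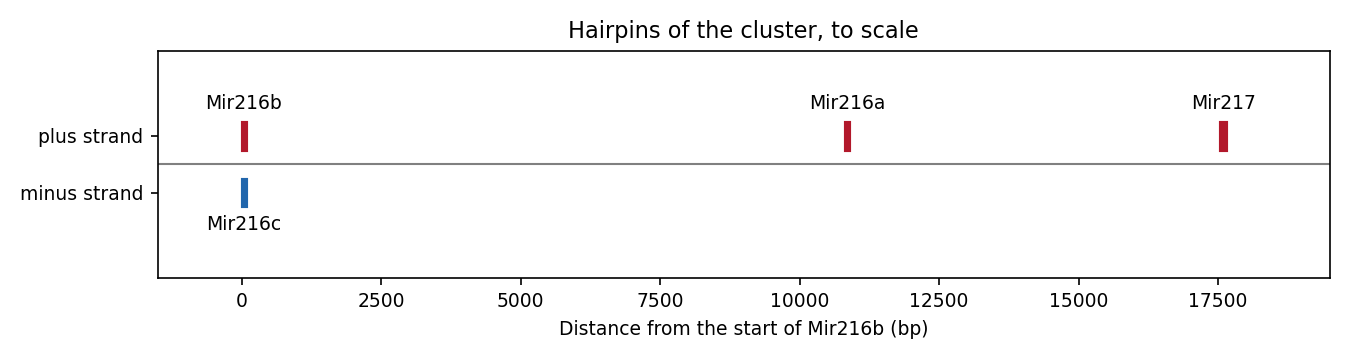
Position of the 4 hairpins, drawn to scale, as distance in bp from the start of Mir216b, with the strand on the vertical axis. Mir216b and Mir216c overlap on opposite strands, and Mir217 ends 17645 bases from the first base of Mir216b, counting both.

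Total counts per library were between 1781030 and 3983722 in DIV5 GDNF, 1061619 and 4324505 in DIV5 control, 420118 and 1761023 in DIV1 GDNF, and 686793 and 1557885 in DIV1 control. Levels are given in CPM, counts per 1000000 counts of the library after scaling with TMM factors, in which 1 read was worth 0.198 to 2.60 CPM. At a count of 0 the level may still be anything below 0.593 to 7.80 CPM, the worth of 3 reads, depending on the library. Reads carry no molecular identifiers, so such limits, and the binomial intervals of read shares below, cover counting error only. DIV5 control libraries 1 and 5 stand apart from the other 3 of their group: 37 of 439 miRNAs with a mean of at least 10 CPM were at least 2-fold higher in both than in the mean of libraries 2, 3 and 4. Results on the cluster arms are therefore given with and without these 2 libraries. miR-217-5p is itself 1 of the 37 miRNAs, so its results without them are a description and no independent support. No other pair of libraries was set against the rest of its group in this way. DIV5 libraries 1 and 2 of both treatments also differed from libraries 3 to 5 in the share of reads without a feature, which was 17.7% to 19.5% in libraries 1 and 2 and 9.51% to 13.3% in libraries 3 to 5. It was 16.5% to 22.6% at DIV1.

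miR-217-5p was the most abundant arm of the cluster, with 3519 reads in all and a mean of 93.9 CPM, which ranked it 235th of the 1581 miRNAs detected. miR-216b-5p followed with 670 reads (22.0 CPM), miR-216a-5p with 475 reads (12.5 CPM), miR-216a-3p with 263 reads (9.03 CPM) and miR-217-3p with 192 reads (6.50 CPM). Each of these 5 had at least 1 read in all 20 libraries. For Mir217 and Mir216a the 5p arm had more reads in all than the 3p arm, although for Mir216a the order differed between libraries. For Mir216b only the 5p arm had reads as counted, and its arm use cannot be judged because of the overlap with Mir216c given below.

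The other 3 arms were at or near 0. miR-216b-3p and miR-216c-5p had 0 reads in all 20 libraries, which allows up to 0.0728 CPM over all libraries together. miR-216c-3p had 2 reads, 1 in DIV5 GDNF library 1 and 1 in DIV5 control library 4. These 3 arms were not tested. miR-216b-5p and miR-216c-3p overlap by 17 nt on opposite strands, and miR-216b-3p and miR-216c-5p, the 2 arms at 0, by 22 nt. Whether counting used strand is not given in the sources used here, and the limit of 0.0728 CPM holds only for reads as they were counted. Reads tallied as ambiguous between features numbered 0 in every file.

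The summed level of the cluster had a lower median at DIV5 than at DIV1 in both treatments. It lay between 46.8 and 117 CPM (median 67.6) in DIV5 GDNF, between 52.8 and 329 CPM (median 101) in DIV5 control, between 120 and 265 CPM (median 173) in DIV1 GDNF and between 125 and 254 CPM (median 149) in DIV1 control. The DIV5 GDNF sums all lay below the lowest DIV1 GDNF sum, whereas the DIV5 control sums overlapped the DIV1 control sums. miR-217-5p alone made up 80.4% and 85.8% of the cluster's reads in DIV5 control libraries 1 and 5, and 52.8% to 69.3% in each of the other 18 libraries.

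**Figure D2:**
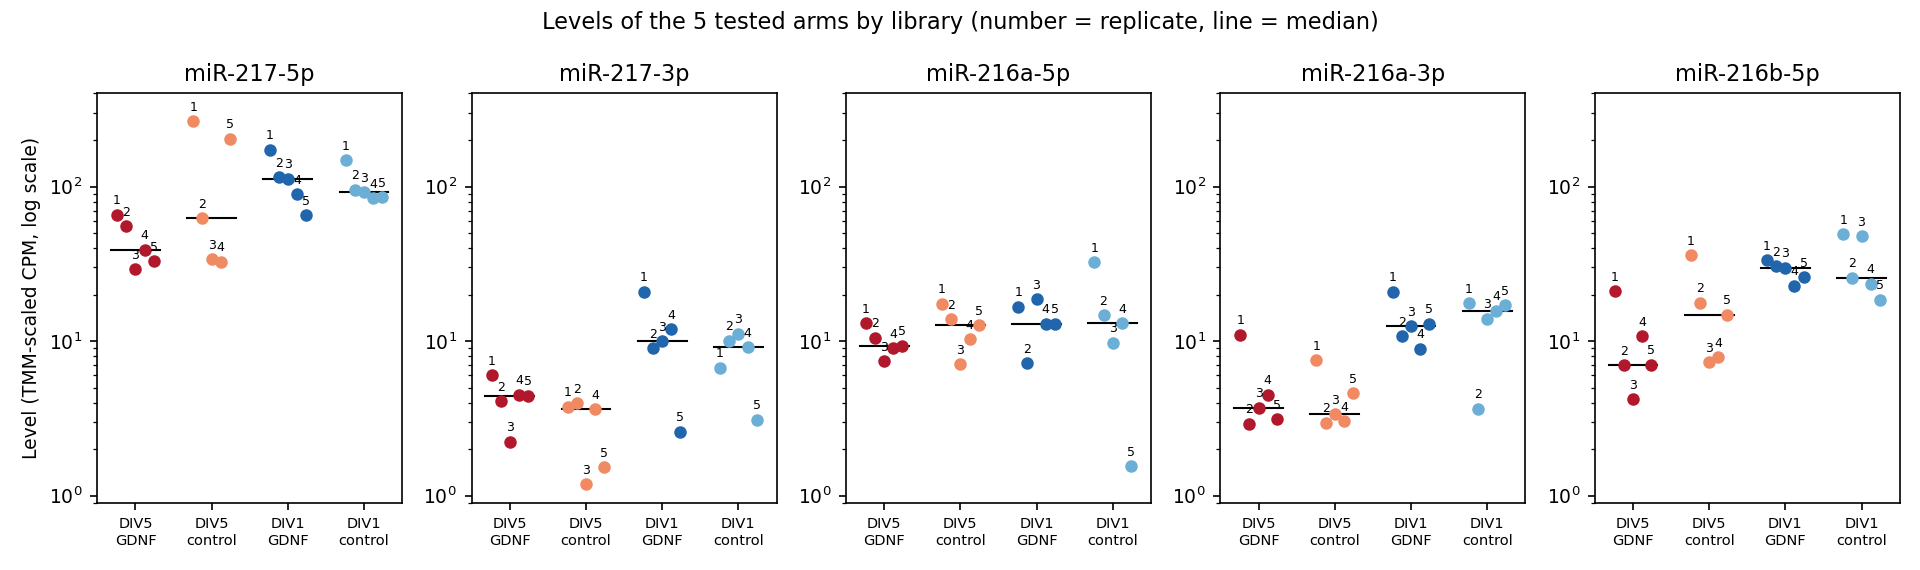
Level of each of the 5 tested arms in every library, in TMM-scaled CPM on a log scale, with groups from left to right DIV5 GDNF, DIV5 control, DIV1 GDNF and DIV1 control. Points are libraries numbered by replicate and lines are group medians. For miR-217-5p, DIV5 control libraries 1 and 5 sit at 264 and 204 CPM, above all other libraries.

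With GDNF in the medium, 4 of the 5 tested arms fell at DIV5 relative to DIV1, by 2.53- to 2.92-fold, and miR-216a-5p was not called. Among all miRNAs tested, 27.3% of the 542 miRNAs were called lower in this comparison (edgeR quasi-likelihood test, adjusted p below 0.05). The median log2 change was -1.40 over the 5 arms and 0.0017 over all 542 miRNAs. A fall between the days was thus common among miRNAs, and the arms were not tested against the rest.

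miR-217-5p, the leading arm of Mir217, had 65.7, 55.5, 29.2, 38.9 and 32.8 CPM in DIV5 GDNF libraries 1 to 5, against 174, 115, 112, 89.6 and 65.0 CPM in DIV1 GDNF libraries 1 to 5. The highest DIV5 value and the lowest DIV1 value nearly coincide, and the rest of the 2 groups do not overlap. The log2 change was -1.34 (SE 0.489, edgeR adjusted p = 0.0280). The call was lost without DIV1 GDNF library 1 (-1.08, adjusted p = 0.0855) and without DIV5 GDNF library 3 (-1.18, 0.0654), 4 (-1.27, 0.0616) or 5 (-1.22, 0.0647), all in edgeR.

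miR-217-3p, the opposite arm of the same hairpin, had 6.02, 4.09, 2.23, 4.49 and 4.42 CPM in DIV5 GDNF libraries, against 20.8, 8.99, 9.97, 11.9 and 2.60 CPM in DIV1 GDNF libraries. The groups overlap only through DIV1 GDNF library 5, the shallowest of all, where the value rests on 1 read. The log2 change was -1.42 (SE 0.396, edgeR adjusted p = 0.00509).

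miR-216b-5p, which carries a seed close to that of miR-216a-5p, had 21.1, 7.01, 4.21, 10.7 and 7.02 CPM in DIV5 GDNF libraries, against 33.3, 30.6, 29.9, 22.9 and 26.0 CPM in DIV1 GDNF libraries. The 2 groups do not overlap, although DIV5 GDNF library 1 comes close. The log2 change of -1.55 (SE 0.446, edgeR adjusted p = 0.00652) was the largest of the 5 arms in this comparison.

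miR-216a-3p had 11.0, 2.92, 3.72, 4.49 and 3.12 CPM in DIV5 GDNF libraries, against 20.8, 10.8, 12.5, 8.96 and 13.0 CPM in DIV1 GDNF libraries. DIV5 GDNF library 1 stands above the other 4 of its group and within the DIV1 range. The log2 change was -1.40 (SE 0.412, edgeR adjusted p = 0.00742).

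miR-216a-5p, the other arm of that hairpin, had 13.0, 10.5, 7.44, 8.98 and 9.37 CPM in DIV5 GDNF libraries, against 16.7, 7.19, 18.7, 12.9 and 13.0 CPM in DIV1 GDNF libraries. The ranges overlap widely. Its log2 value was -0.50 (SE 0.406, edgeR adjusted p = 0.305), so a change of this size was not distinguished from the spread.

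Without GDNF, 3 of the 5 tested arms fell at DIV5 relative to DIV1, against 29.3% of the 542 miRNAs called lower. The arms that fell were both 3p arms and miR-216b-5p, and the median log2 change was -1.03 over the 5 arms and 0.10 over all miRNAs. miR-217-5p was not called here, and its value turned on the 2 DIV5 control libraries that stand apart.

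miR-217-5p had 264, 62.2, 33.8, 32.7 and 204 CPM in DIV5 control libraries 1 to 5, against 148, 95.3, 92.3, 83.7 and 85.2 CPM in DIV1 control libraries 1 to 5. DIV5 control libraries 1 and 5 lie above every DIV1 control library, and libraries 2, 3 and 4 lie below every one. The group mean was 119 ± 108 CPM in DIV5 control and 101 ± 26.9 CPM in DIV1 control (SD, n = 5 each), with a log2 value of 0.24 (SE 0.477, edgeR adjusted p = 0.677). Without DIV5 control libraries 1 and 5 the DIV5 mean was 42.9 ± 16.7 CPM (SD, n = 3) and the log2 change was -1.27 (SE 0.320, edgeR adjusted p = 0.00220, 530 miRNAs tested). The libraries left out hold the highest values of the group for this arm, so that p cannot serve as a test of a fall. Leaving out only library 1 gave -0.29 (adjusted p = 0.569) and only library 5 gave -0.046 (adjusted p = 0.943).

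miR-217-3p showed no such split. Its DIV5 control libraries had 3.77, 3.95, 1.19, 3.63 and 1.53 CPM, against 6.74, 10.1, 11.2, 9.16 and 3.10 CPM in DIV1 control libraries. DIV5 control libraries 1 and 5 are not the high ones here, and the groups overlap only through DIV1 control library 5, with 2 reads. The log2 change was -1.67 (SE 0.442, edgeR adjusted p = 0.00282) with all libraries and -1.64 (adjusted p = 0.00962) without the 2.

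miR-216a-3p had 7.54, 2.96, 3.36, 3.03 and 4.59 CPM in DIV5 control libraries, against 17.5, 3.66, 14.0, 15.7 and 17.0 CPM in DIV1 control libraries. Apart from DIV1 control library 2, all DIV1 values are above all DIV5 values. The log2 change was -1.64 (SE 0.415, edgeR adjusted p = 0.00205), and -2.03 (adjusted p = 0.00119) without the 2 libraries.

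miR-216b-5p had 35.8, 17.8, 7.32, 7.87 and 14.8 CPM in DIV5 control libraries, against 49.2, 25.7, 47.5, 23.6 and 18.6 CPM in DIV1 control libraries. Only DIV5 control library 1 lies within the DIV1 range. The log2 change was -1.03 (SE 0.430, edgeR adjusted p = 0.0436), and -1.75 (adjusted p = 0.00203) without the 2 libraries. This call is near the threshold. It was lost in 11 of 22 alternatives, among them leaving out DIV1 control library 1 (-0.79, adjusted p = 0.156), 2 (-1.08, 0.0518) or 3 (-0.87, 0.112) and DIV5 control library 2 (-1.04, 0.0558), 3 (-0.81, 0.110), 4 (-0.84, 0.106) or 5 (-0.99, 0.0709).

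miR-216a-5p had 17.4, 13.8, 7.12, 10.3 and 12.7 CPM in DIV5 control libraries, against 32.3, 14.7, 9.78, 13.1 and 1.55 CPM in DIV1 control libraries. Both the highest and the lowest of these 10 values are DIV1 control libraries, and the lowest rests on 1 read. The log2 value was -0.36 (SE 0.393, edgeR adjusted p = 0.430), and -0.68 (adjusted p = 0.200) without the 2 DIV5 libraries. It was 0.27 (adjusted p = 0.572) without DIV1 control library 1.

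Without DIV5 control libraries 1 and 5, 4 of the 5 arms fell at DIV5 in cultures without GDNF, against 26.4% of 530 miRNAs called lower. In the same fit 4 of 5 fell in cultures with GDNF, against 28.7%. The same 4 arms were called in both, and miR-216a-5p in neither. The log2 values of miR-217-5p were then -1.31 with GDNF (SE 0.267) and -1.27 without it (SE 0.320). The value without GDNF, and the call of miR-217-5p there, rest on leaving out the highest values of its group.

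The number of arms called depended on which DIV5 libraries were used. With DIV5 libraries 1 and 2 alone against all DIV1 libraries, 0 of 5 arms were called with GDNF and 0 without it, beside 191 and 246 miRNAs of the whole table called in either direction. With DIV5 libraries 3 to 5 alone, 4 were called with GDNF and 3 without it, beside 306 and 332 miRNAs. These whole-table counts cover both directions, so the arms cannot be set against the share called lower in these fits. With GDNF the log2 values in libraries 1 and 2 were still negative, at -0.89 for miR-217-5p, -1.13 for miR-217-3p, -0.85 for miR-216a-3p and -1.01 for miR-216b-5p, and in libraries 3 to 5 they were -1.70, -1.55, -1.72 and -1.93 for the same arms. The first set has 2 libraries a group and the second 3, and the difference between the sets was not tested. Libraries 1 and 2 had the smaller totals of the DIV5 libraries, 1061619 to 1907937 counts against 2969524 to 4324505 in libraries 3 to 5. The summed vascular and mesenchymal markers split the same way, with 1154 to 2032 CPM in DIV5 libraries 1 and 2 and 221.6 to 640.0 CPM in DIV5 libraries 3 to 5 over both treatments. So did the summed Hox-linked miRNAs of hindbrain and spinal cord, given below. The part of depth, of the share of reads without a feature and of these cells in the calls was not tested. Scaling also matters for the size of the changes: by library totals alone the median log2 value of all miRNAs shifted by 0.15 with GDNF and by 0.25 without it. The whole table then had 166 miRNAs higher and 117 lower with GDNF, and 228 higher and 111 lower without it. With TMM factors it had 136 higher and 148 lower with GDNF, and 170 higher and 159 lower without it. By library totals 4 arms were called lower with GDNF and 2 without it.

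**Figure D3:**
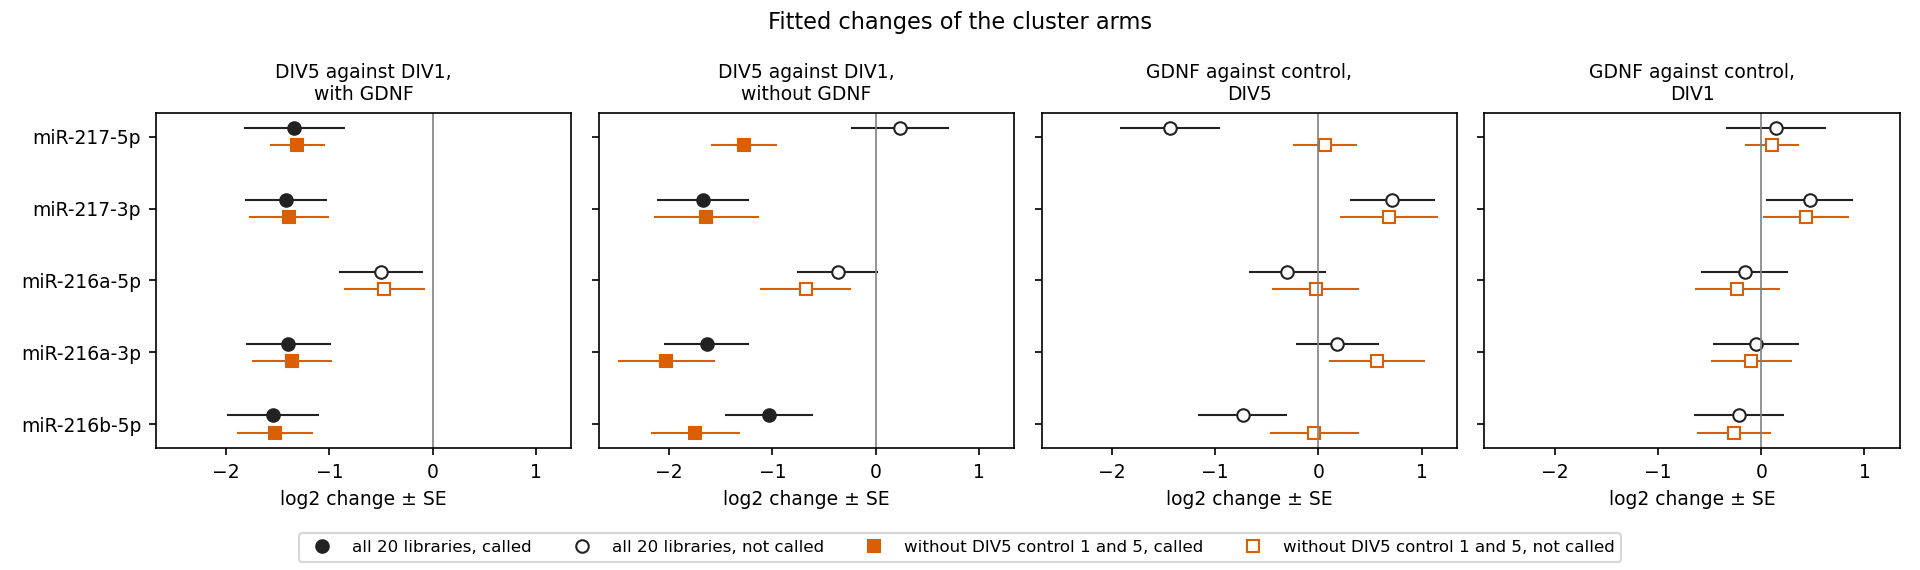
Fitted log2 change of each tested arm in the 4 comparisons, with bars of 1 SE. Circles use all 20 libraries, squares leave out DIV5 control libraries 1 and 5, and filled symbols were called by edgeR. miR-217-5p without GDNF moves to -1.27 when the 2 libraries are left out, and for GDNF at DIV5 it moves to 0.06.

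No arm of the cluster was called for GDNF at DIV5 in the edgeR fit, 0 of 5 against 0.185% of all miRNAs (1 of 542). At an unadjusted p below 0.05 there were 88 of 542. With a replicate term within each day 3 of 542 were called, again with 0 arms. miR-217-5p averaged 44.4 ± 15.6 CPM in DIV5 GDNF and 119 ± 108 CPM in DIV5 control (SD, n = 5 each), with a log2 value of -1.44 (SE 0.483, edgeR adjusted p = 0.120). That value depends on the libraries and on the tool. DESeq2 called it (-1.46, adjusted p = 0.0331) as 1 of 26 miRNAs over the whole table, limma voom called 0 arms, and it was also called by edgeR without DIV5 control library 3 (-1.68, adjusted p = 0.0306) or 4 (-1.68, adjusted p = 0.0287). Without DIV5 control libraries 1 and 5 the mean was 44.4 CPM in DIV5 GDNF and 42.9 CPM in DIV5 control, and the log2 value was 0.06 (95% interval from the SE, -0.54 to 0.66; edgeR adjusted p = 0.999). In that fit 0% of 530 miRNAs were called, with 8 at an unadjusted p below 0.05.

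The other arms had values of either sign for GDNF at DIV5. miR-217-3p averaged 4.25 ± 1.35 CPM in DIV5 GDNF and 2.81 ± 1.34 CPM in DIV5 control (log2 0.72, edgeR adjusted p = 0.427). Each of the 5 DIV5 GDNF libraries exceeded the DIV5 control library of its number, and with a replicate block within each day the log2 value was 0.71 (edgeR adjusted p = 0.290). miR-216b-5p averaged 10.0 ± 6.60 CPM in DIV5 GDNF and 16.7 ± 11.6 CPM in DIV5 control (log2 -0.73, edgeR adjusted p = 0.451). The 2 arms of Mir217 thus differed in the sign of their values in the fit with all libraries, and neither was called. miR-216a-5p averaged 9.87 ± 2.09 CPM in DIV5 GDNF and 12.3 ± 3.86 CPM in DIV5 control (log2 -0.30). miR-216a-3p averaged 5.06 ± 3.40 CPM in DIV5 GDNF and 4.30 ± 1.93 CPM in DIV5 control (log2 0.18, and -0.24 without DIV5 GDNF library 1).

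At DIV1, 0 of 5 arms were called for GDNF, as for 0% of all 542 miRNAs, with 7 at an unadjusted p below 0.05. DESeq2 and limma voom also called 0 arms. miR-217-5p averaged 111 ± 40.4 CPM in DIV1 GDNF and 101 ± 26.9 CPM in DIV1 control (log2 0.14, with a 95% interval of -0.81 to 1.09). The largest of the 5 log2 values was 0.47, for miR-217-3p, with 10.9 ± 6.58 CPM in DIV1 GDNF and 8.05 ± 3.22 CPM in DIV1 control. miR-216b-5p averaged 28.5 ± 4.10 CPM in DIV1 GDNF and 32.9 ± 14.4 CPM in DIV1 control (log2 -0.22). For miR-216a-5p the means were 13.7 ± 4.39 CPM in DIV1 GDNF and 14.3 ± 11.3 CPM in DIV1 control, and for miR-216a-3p they were 13.2 ± 4.55 CPM in DIV1 GDNF and 13.6 ± 5.71 CPM in DIV1 control. Each of these differences is smaller than the larger of the 2 SDs.

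The difference between the GDNF effects at DIV5 and at DIV1 was called for 0 of 5 arms, as for 0% of all 542 miRNAs, with 50 at an unadjusted p below 0.05. DESeq2 and limma voom likewise called 0 arms. For miR-217-5p this difference was -1.58 on the log2 scale (SE 0.682, edgeR adjusted p = 0.474) with all libraries, and -0.04 (adjusted p = 0.997) without DIV5 control libraries 1 and 5.

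Both arms of Mir217 come from 1 hairpin. Their ratio is taken from counts of the same library, so it does not depend on scaling. DIV5 control library 1 had 561 reads of the 5p arm and 8 of the 3p arm, a ratio of 70.1. DIV5 control library 5 had 933 and 7 reads, a ratio of 133. In the other 18 libraries the ratio lay between 7.41 and 28.5. In DIV5 control libraries 1 and 5 the 5p arm was thus high while its partner was not.

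The other cluster arms did not follow miR-217-5p in these 2 libraries to the same degree. Relative to the mean of DIV5 control libraries 2, 3 and 4, miR-217-5p was 6.16-fold higher in library 1 and 4.75-fold higher in library 5. For miR-217-3p the ratio was 1.29 in library 1 and 0.523 in library 5. miR-216b-5p stood at 3.26 and 1.35, miR-216a-3p at 2.42 and 1.47, and miR-216a-5p at 1.67 and 1.22 in libraries 1 and 5. Of the 439 miRNAs with a mean of at least 10 CPM, miR-217-5p ranked 11th by the smaller of the 2 ratios. Of the 37 miRNAs at least 2-fold higher in both libraries, an opposite arm of the same name passed the filter for 26. For 0 of these 26 was it also 2-fold higher in both, beside 37 of the 439 miRNAs, a low share that 0 of 26 is near. Opposite arms with a copy number in their name were left out of this count. Among them were miR-7a-1-3p (0.952 in library 1 and 0.991 in library 5), miR-7a-2-3p (1.01 and 1.16) and miR-24-2-5p (0.565 and 1.06). The 37 were chosen by these libraries' values, so these counts describe them and test nothing. What sets the 2 libraries apart was not tested.

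**Figure D4:**
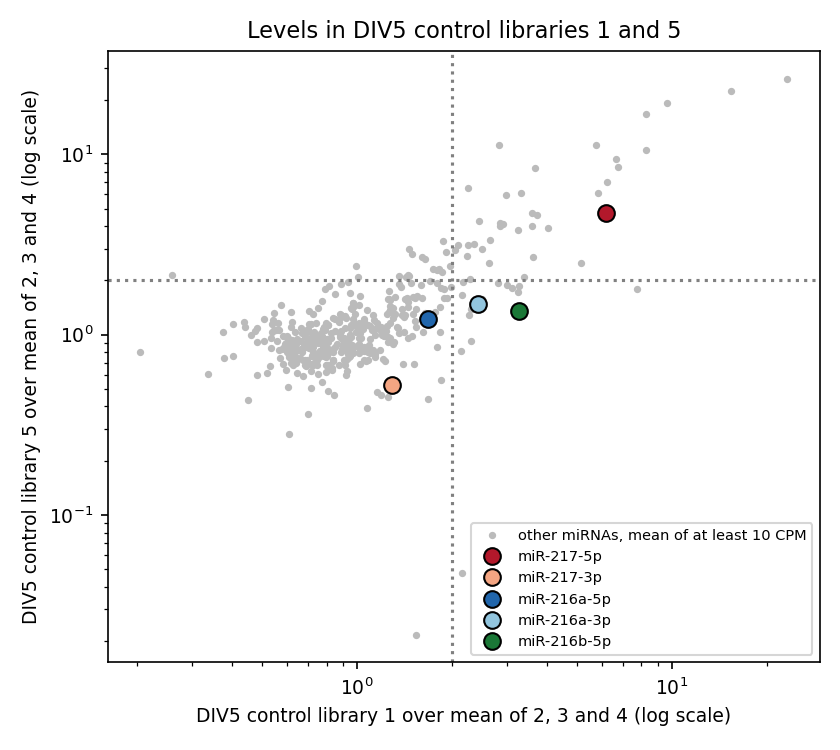
Level in DIV5 control library 1 (horizontal axis) and library 5 (vertical axis), each over the mean of DIV5 control libraries 2, 3 and 4, on log scales, with cluster arms in colour and other miRNAs in grey. Dotted lines mark 2-fold. miR-217-5p sits at 6.16 and 4.75, while miR-217-3p sits at 1.29 and 0.523.

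Mir216a gave reads from both arms in more even numbers. The 5p arm made up 67.0% of its reads in DIV5 GDNF (95% exact Clopper-Pearson interval 60.3% to 73.2%), 72.8% in DIV5 control (66.7% to 78.2%), 52.7% in DIV1 GDNF (43.7% to 61.6%) and 56.6% in DIV1 control (48.1% to 64.8%), with the reads of 5 libraries pooled. Single libraries ranged from 54.2% to 78.3% in DIV5 GDNF, from 67.9% to 82.4% in DIV5 control, from 40% to 60% in DIV1 GDNF and from 8.33% to 80% in DIV1 control. The single-library shares overlap between the days within each treatment, and the difference in arm use was not tested. The higher 5p share at DIV5 goes with the fall of miR-216a-3p beside the smaller values for miR-216a-5p.

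**Figure D5:**
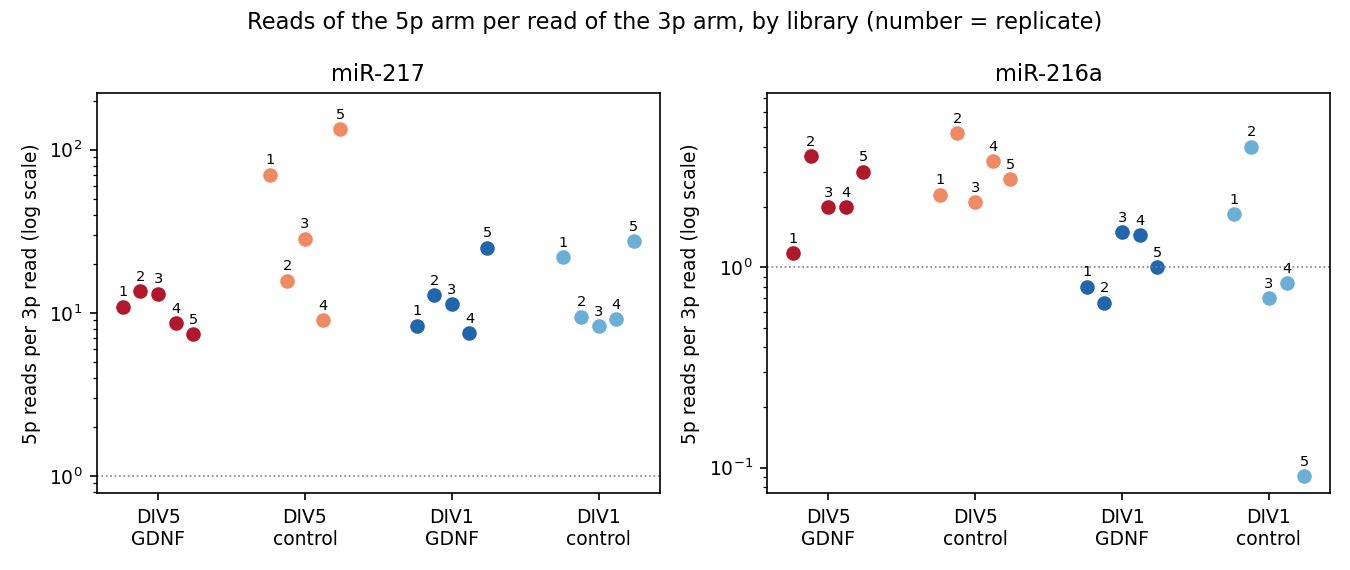
Reads of the 5p arm per read of the 3p arm in every library, on a log scale, for the Mir217 hairpin (left) and the Mir216a hairpin (right), with groups from left to right DIV5 GDNF, DIV5 control, DIV1 GDNF and DIV1 control. Points are libraries numbered by replicate, and dotted lines mark equal numbers. DIV5 control libraries 1 and 5 stand at 70.1 and 133 for Mir217 but within the range of their group for Mir216a.

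Across the 20 libraries the log2 levels of the arms ran together to different degrees. Pearson's r with miR-217-5p was 0.79 for miR-216b-5p, 0.57 for miR-216a-3p, 0.39 for miR-216a-5p and 0.39 for miR-217-3p. Over the 18 libraries without DIV5 control 1 and 5 the r was 0.90 for miR-216b-5p, 0.78 for miR-216a-3p, 0.36 for miR-216a-5p and 0.78 for miR-217-3p. These values are descriptions with no test. The libraries share their day, depth and treatment, and the 2 rarest arms have few reads.

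The other miRNAs whose log2 levels ran most like miR-217-5p over the 20 libraries, of 436 with a mean of at least 10 CPM, were miR-760-3p (Pearson r 0.90, Spearman rho 0.87), miR-92b-5p (r 0.84), miR-425-5p (r 0.83), miR-296-3p (r 0.81) and miR-135a-1-3p (r 0.79). Without DIV5 control libraries 1 and 5 the most alike over 18 libraries were miR-28a-5p (r 0.95), miR-423-5p (r 0.94), miR-130b-5p (r 0.93), miR-25-5p (r 0.92) and miR-298-5p (r 0.92). The 2 sets of 5 share 0 miRNAs. Over the 18 libraries the first 5 still had r of 0.87, 0.81, 0.72, 0.90 and 0.81, in the order named. Over the 20 libraries the second 5 had r of 0.63, 0.57, 0.50, 0.54 and 0.34. The order of likeness thus depended on these 2 libraries, but the first 5 ran like miR-217-5p with and without them.

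Lists of miRNAs known from other tissues and cell types give the setting of the cluster's fall. Of other pancreas miRNAs, 6 arms were tested: 0 were called with GDNF, and without GDNF 1 was called higher and 3 lower at DIV5. Of its 2 most abundant arms, miR-148a-3p, known from acinar cells, averaged 3418 ± 319 CPM in DIV5 GDNF and 3395 ± 238 CPM in DIV1 GDNF (log2 0.0094, edgeR adjusted p = 0.955). Without GDNF it fell, with 2443 ± 436 CPM in DIV5 control and 3389 ± 495 CPM in DIV1 control (log2 -0.47, edgeR adjusted p = 0.00240). miR-7a-5p, known from endocrine cells and neurons, averaged 200.4 ± 78.4 CPM in DIV5 GDNF and 85.0 ± 27.7 CPM in DIV1 GDNF (log2 1.23, edgeR adjusted p = 0.159). Without GDNF it rose, with 1507 ± 1914 CPM in DIV5 control and 67.3 ± 7.18 CPM in DIV1 control (log2 4.49, edgeR adjusted p = 0.000126). Like miR-217-5p it was high in DIV5 control libraries 1 and 5, at 2289 and 4537 CPM, against a mean of 236.7 CPM in libraries 2, 3 and 4. Of the Hox-linked miRNAs of hindbrain and spinal cord, 2 arms were tested, miR-10a-5p and miR-10b-5p, and 0 were called in either day comparison. Their list's summed level ranged from 8.73 to 380.2 CPM in DIV5 GDNF, 4.59 to 329.8 CPM in DIV5 control, 75.0 to 772.1 CPM in DIV1 GDNF and 68.7 to 622.6 CPM in DIV1 control. The sums vary widely within every group. At DIV5, libraries 1 and 2 of both treatments had 67.7 to 380.2 CPM and libraries 3 to 5 had 4.59 to 35.7 CPM. At DIV1, library 5 had 622.6 CPM in control and 772.1 CPM with GDNF, against 68.7 to 106.2 CPM in the other DIV1 libraries. The part of such cells in the calls of the cluster arms was not tested.

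Marker lists of the culture's cell types differed in the direction of their calls. Over the whole table, 136 of 542 miRNAs were called higher and 148 lower with GDNF, and 170 higher and 159 lower without it. Of 13 neuron arms, 7 were called higher and 3 lower at DIV5 with GDNF, and 8 higher and 4 lower without. miR-124-3p, a hallmark of neurons, averaged 6044 ± 880 CPM in DIV5 GDNF and 2443 ± 197 CPM in DIV1 GDNF, so this marker of the labelled cell type was present at both days. The more abundant miR-128-3p averaged 7453 ± 1802 CPM in DIV5 GDNF and 2957 ± 981 CPM in DIV1 GDNF. Of 10 neural progenitor arms, 8 were called lower with GDNF, and without it 7 lower and 1 higher. The most abundant of them, miR-9-5p, was not called (log2 0.0017 with GDNF and -0.11 without it, edgeR adjusted p = 0.993 and 0.537). The next, miR-92b-3p, was called lower in both (log2 -1.55 with GDNF and -1.64 without it). Astrocyte and glial arms (5 tested) had 2 higher and 0 lower with GDNF, and 3 higher and 1 lower without. Oligodendrocyte lineage arms (3 tested) had 1 higher and 2 lower in both comparisons, ependymal and choroid plexus arms (6 tested) 1 higher and 1 lower in both, and epithelial arms (2 tested) 1 lower with GDNF and 2 lower without. Without DIV5 control libraries 1 and 5, the counts without GDNF were 6 higher and 2 lower for neuron arms, 0 higher and 7 lower for progenitor arms, 2 higher and 0 lower for astrocyte and glial arms and 1 lower for epithelial arms. With GDNF, where these 2 libraries enter only through the common fit, they were 7 higher and 4 lower for neuron arms, 2 higher and 1 lower for astrocyte and glial arms, 1 higher and 2 lower for ependymal and choroid plexus arms, and 1 higher and 0 lower for the pancreas list. In the GDNF comparisons 0 arms of any of these lists were called at either day.

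Vascular, mesenchymal and blood cell lists held calls only in the direction of the cluster arms. So did the epithelial list and, with GDNF, the neural progenitor list. Of 11 vascular and mesenchymal arms listed, 6 were tested and 4 called lower in both day comparisons, beside 27.3% of all miRNAs with GDNF and 29.3% without. Their summed level was 221.6 to 2032 CPM in DIV5 GDNF, 490.2 to 1411 CPM in DIV5 control, 2784 to 3493 CPM in DIV1 GDNF and 2826 to 4203 CPM in DIV1 control. miR-126a-3p, the main endothelial marker among them, averaged 25.5 ± 6.60 CPM in DIV5 GDNF, 33.6 ± 19.0 CPM in DIV5 control, 59.7 ± 15.5 CPM in DIV1 GDNF and 93.7 ± 41.0 CPM in DIV1 control, and was called lower at DIV5 in both comparisons. Its relatives miR-126a-5p and miR-126b-3p were at 0 throughout. The most abundant arm of the list, miR-143-3p, was also called lower in both (log2 -1.76 with GDNF and -2.10 without it). Of 11 blood cell arms listed, 3 were tested and all 3 were called lower in both comparisons, with sums of 17.6 to 62.5 CPM in DIV5 GDNF, 12.7 to 63.2 CPM in DIV5 control, 80.6 to 179 CPM in DIV1 GDNF and 102 to 179 CPM in DIV1 control, and miR-486b-3p was at 0. The part of these cells in the fall of the cluster was not tested.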

How the data were processed

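The 20 small RNA libraries (TruSeq) were analysed from the raw read counts per mature miRNA that the authors deposited, 1 table per library, with no normalization. Per the submitters' processing notes, cutadapt 1.8.1, STAR 2.4.1d and HTSeq (version not given) were used with build mm10. The miRNA annotation and counting settings are not given in the sources used here. Tally lines stayed out of library sizes. They held 9.51% to 22.6% of reads, as reads without a feature.

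In R 4.3.3, edgeR 4.0.16 filterByExpr kept 542 of 1886 miRNAs, libraries were scaled with TMM factors, and 1 quasi-likelihood fit (robust) with 1 coefficient per group was run on all 20 libraries. Calls use a Benjamini-Hochberg adjusted p below 0.05 over all tested miRNAs, two-sided. The SE is the log2 change divided by the square root of F. The code was tested on simulated data. Alternatives were RLE factors, library totals, other filters, DESeq2 1.42.0, limma 3.58.1 voom, replicate terms and libraries left out. The fits with DIV5 libraries 1 and 2 or 3 to 5 were added after the data were seen.

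The members, the context lists and the naming rule were chosen with earlier results of these data known. The rule names every listed arm of the 4 miRNAs, the 5 miRNAs with the highest Pearson r of log2(CPM + 0.5) with the most abundant arm among those with a mean of at least 10 CPM, and the most abundant arms of context lists (pancreas, Hox-linked, neuron, progenitor, glial, oligodendrocyte, vascular and mesenchymal, blood, ependymal, epithelial). Not every such list arm is named in the text. Other names of list arms, such as those at 0, were added after their values were seen.

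Same-numbered libraries were checked by the correlation of their deviations from the group means. It was 0.208 to 0.514 for GDNF and control at DIV5, 0.0062 to 0.474 at DIV1, -0.102 to 0.142 for DIV5 and DIV1 with GDNF and -0.107 to -0.00069 without. Differently numbered libraries were not compared, so these values cannot show whether the numbers mark pairs, and the labels do not say. No 2 libraries of a group were near-identical (lowest chi-square per degree of freedom 12.4).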

Additional observations from a re-analysis of the deposited data

Results flagged for a closer look

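For the 5 tested arms in the 4 groups, 20 sets of 5 libraries in all, the gap between the most extreme library and its nearest neighbour was compared with the range of the set. In 3 of the 20 sets it passed the critical value of 0.71, where chance gives about 1 in 20. miR-217-5p had 148 CPM in DIV1 control library 1, above the other 4 libraries of its group. miR-216a-3p had 3.66 CPM in DIV1 control library 2, below the other 4, and this value rests on 4 reads. miR-216a-3p had 11.0 CPM in DIV5 GDNF library 1, above the other 4. The high miR-217-5p values of DIV5 control libraries 1 and 5 do not pass such a check, since each lies near the other.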

How the results depend on the processing

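Unless said otherwise, log2 values are edgeR's and the cause of each difference was not tested. For miR-217-5p at DIV5 against DIV1 without GDNF (0.24), the sign turned in limma voom (-0.32), with a replicate block (-0.017), once DIV5 control libraries 1 and 5 were left out (-1.27), under both changes together (-1.16) and in DIV5 libraries 3 to 5 (-0.23), and leaving out 1 library gave -0.29 to 0.49. With GDNF its call was lost without a filter (-1.09) and in DIV5 libraries 1 and 2 (-0.89), and leaving out 1 library gave -1.51 to -1.08. For GDNF at DIV5 miR-217-5p was called by DESeq2 (-1.46, 1 arm called), was 0.062 without the 2 libraries, and ranged from -1.68 to -0.90 with 1 library left out, with 0 to 1 arms called; the replicate block within each day gave -0.98 (adjusted p = 0.264). For GDNF at DIV1 it ranged from -0.10 to 0.33. The number of arms called was 2 with GDNF and 1 without it at a mean of at least 10 CPM. That filter leaves 3 arms to test. With only the groups compared fitted, the number was 1 without GDNF. There miR-217-3p did not pass the filter and miR-216b-5p lost its call (-1.02, edgeR adjusted p = 0.0703). In DIV5 libraries 1 and 2 the number of arms called was 0 with GDNF and 0 without it. With a replicate block no arm gained or lost a call.

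Uncalled values near 0 turned sign. For GDNF at DIV1, miR-216a-5p was 0.11 in voom and 0.0045 with a replicate block (-0.42 to 0.44 with 1 library left out), and miR-216a-3p was 0.072 in voom and 0.044, 0.046 and 0.016 with a replicate block, with a block within each day and with a block without the 2 libraries (-0.33 to 0.10). In the difference of GDNF effects, miR-216a-5p was 0.21 without the 2 libraries and 0.025 in DIV5 libraries 3 to 5 (-0.75 to 0.12), miR-216b-5p was 0.22 without the 2 libraries and 0.0065 with a replicate block as well (-0.92 to 0.028), miR-217-3p was -0.14 in DIV5 libraries 1 and 2, and miR-216a-3p ranged from -0.17 to 0.52 with 1 library left out. At DIV5 against DIV1 without GDNF, miR-216a-5p was 0.082 in DIV5 libraries 1 and 2 (-0.58 to 0.27 with 1 library left out). For GDNF at DIV5, miR-216a-3p ranged from -0.24 to 0.43 with 1 library left out. The whole-table count for GDNF at DIV5 was 0 to 43 over the alternatives. Depth limits the rarest arms: 1 read is worth up to 2.60 CPM, and miR-217-3p and miR-216a-5p rest on 1 read in single DIV1 libraries.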
